A study of Mus musculus with 18 samples.

Results

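The clustered protocadherin genes encode cadherin-like cell surface proteins that are best known in neurons. Each neuron transcribes its own mix of them from separate promoters that lie side by side in 3 clusters, Pcdha, Pcdhb and Pcdhg, and the resulting surface code lets a neuron tell its own branches from those of other cells. In Pcdha and Pcdhg, every variable first exon carries its own promoter and is spliced to a short set of constant 3′ exons that all genes of the cluster share. The Pcdhb genes have no constant exons, and each is a single exon. CTCF and cohesin loop a chosen promoter to a distal enhancer, and DNA methylation and SMCHD1 keep the other promoters silent. The 5 C-type members at the 3′ ends of Pcdha and Pcdhg (Pcdhac1, Pcdhac2, Pcdhgc3, Pcdhgc4 and Pcdhgc5) are transcribed more uniformly across neurons than the others.

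Members were taken by gene name. The naming rule used no measured values, although earlier results of these data were known when it was chosen. Of 21859 genes in the nascent RNA table, 57 carried a clustered protocadherin name. They comprised 14 Pcdha, 22 Pcdhb and 21 Pcdhg genes, the last split into 12 Pcdhga, 6 Pcdhgb and 3 Pcdhgc. The 57 entries had 56 names, since the name Pcdha11 stood for 2 gene identifiers. On chromosome 18 (GRCm38, plus strand), Pcdha spanned 36930184 to 37187661, Pcdhb 37264938 to 37524479 and Pcdhg 37661793 to 37841873.

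The study measured newly made RNA in E14 mouse embryonic stem (ES) cells after loss of SPT16, a subunit of the histone chaperone FACT. It used TT-seq, in which a 5 min pulse of 4-thiouridine marks nascent transcripts before purification. The 18 libraries formed 6 groups of 3, namely Untagged_EtOH, Untagged_3-IAA, SPT16_AID_V5_Clone1_EtOH, SPT16_AID_V5_Clone1_3-IAA, SPT16_AID_V5_Clone2_EtOH and SPT16_AID_V5_Clone2_3-IAA. All cells carried the auxin receptor osTIR1, were grown with serum, LIF and inhibitors of MEK and GSK3, and were treated for 24 h with auxin (3-IAA, 500 nM in the labels and the same figure in µM in the study's methods) or with ethanol, its vehicle. In the tagged cells the endogenous gene for SPT16 carried an auxin-inducible degron and a V5 epitope in both alleles. Each of the 2 tagged lines was a single clone, the Untagged cells carried osTIR1 without the degron, and libraries of the same line were technical rather than biological replicates per the study's methods.

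Apart from the authors' own comparison, which was not used, the gene table held only 1 value per gene: the baseMean, a read count divided by each library's size factor and averaged over the libraries. Hence every level below is a single mean over treated and control libraries, without an SD, and no effect of SPT16 depletion on a protocadherin can be given. The lowest values of the gene table fell on 18 recurring values, as many as there were libraries, between 0.0216 and 0.115. These were read as the amounts that 1 read adds in each library. They span a 5.34-fold range, which reflects the authors' size factors, and the total reads per library are not known.

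The clustered protocadherins were all but missing from the gene table. A baseMean above 0 was listed for 1 of the 57 members, Pcdha1, against 92.2% of all genes. The study took a baseMean of 1 as its limit for transcribed genes in pathway analyses, and not as a general filter. At or above 1, the count was again 1 member, against 80.9% of all genes. At 10 or more it was 0, against 70.6%. The median was 0 in Pcdha, in Pcdhb and in Pcdhg, and 272.7 over all genes. All 22 Pcdhb genes, all 21 Pcdhg genes and the other 13 Pcdha entries were listed at 0, including all 5 C-type members.

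Pcdha1, the gene at the 5′ edge of the Pcdha cluster, had a baseMean of 4.44. Depending on which libraries the reads came from, that level required between 39 and 205 reads over the 18 libraries, and 25.6% of all genes had a lower baseMean. Pcdha1 shared its gene span with 16 other genes of the table on the same strand, and only the first 9021 of its 257478 bases (36930184 to 36939204, up to the start of Pcdha2) lay in no other gene. Per kb of this free stretch its level was 0.493, above 27.0% of the 21417 genes with any free base and below their median of 16.6. Per kb of exonic bases in no other gene's exons it was 1.79, above 25.2% of the 21677 genes with such bases and below their median of 81.5.

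Exonic bases were compared next, with 1 member, Pcdha1, listed above 0 and 56 listed at 0. The part of the shared 3′ exons in these values was not tested. Every member had exonic bases that were its own, meaning bases in no exon of any other annotated gene on that strand. They numbered 494 to 4606 in Pcdha (median 2480, or 46.4% of the exonic bases) and 1570 to 4614 in Pcdhg (median 2637, or 55.4%). The 22 Pcdhb genes consisted of 1 exon block each, with 2588 to 8695 exonic bases of their own (median 3714), which made up 90.3% of the exonic bases in the gene with the lowest share. Pcdha1, with 2489 such bases, did not stand out among the Pcdha genes, and Pcdhb14, with the most of any member, was listed at 0. Per kb of these bases the median level was 0 in each of the 3 clusters.

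**Figure D1:**
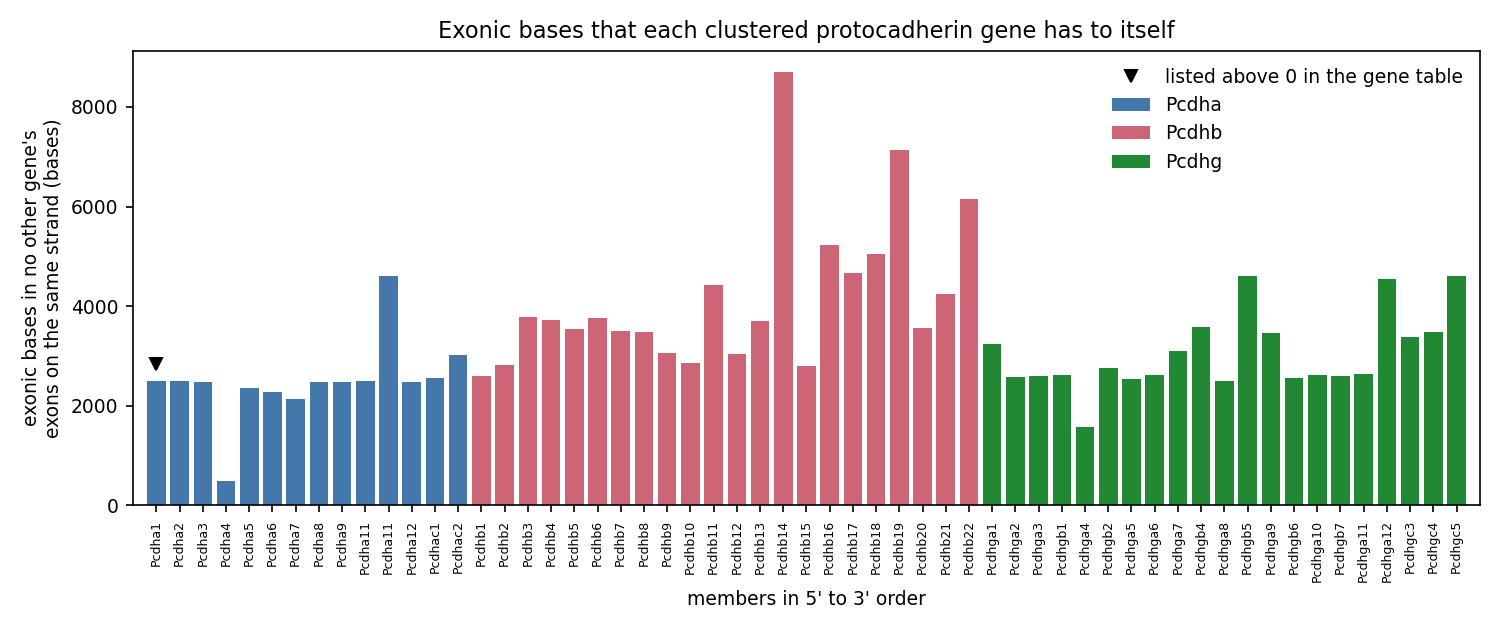
Exonic bases (vertical axis, in bases) that lie in no exon of another annotated gene on the same strand, for each of the 57 members in 5′ to 3′ order (horizontal axis), coloured by cluster. The bars run from 494 to 8695 bases and are highest in Pcdhb. The black triangle marks Pcdha1, the single member listed above 0.

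Pcdha1 stood apart in its gene span, introns included. It was the only member with any span base outside all other genes of the table on the same strand, and the other 56 had none. In Pcdha and Pcdhg the overlap came mostly from the neighbouring members, because each gene runs from its own promoter to the common 3′ end. In Pcdhb and in the first part of Pcdhga1 it came from 3 long protein-coding gene models, Gm42416 (36952741 to 37840200), Gm37013 (36969916 to 37833296) and Gm37388 (36975941 to 37833296), which start within Pcdha, run through the whole of Pcdhb and end within Pcdhg. Their exons covered 2856, 313 and 429 bases of spans of 887460, 863381 and 857356 bases, and all 3 were themselves listed at 0. With these models left out, 24 members had free span bases: all 22 Pcdhb genes (20 of them over the whole span), Pcdha1 and Pcdhga1.

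The same held across the table. Of the 400 genes with no free span base, 398 (99.5%) were listed at 0, and leaving out the members this was 342 of 344. The exceptions were S100a2 at 7.24 and Ifi211 at 0.240. Of the 21417 genes with some free span, 1279 (5.97%) were listed at 0. Genes of this kind that ordinary cells depend on were also listed at 0, among them Rpl13, a protein of the large ribosomal subunit, Cox4i1, a subunit of cytochrome c oxidase, and Taf9, a subunit of the general transcription factor TFIID. A 0 for a member is therefore given here only as what the table lists, and not as a measured lack of nascent RNA. Sorting genes by free exonic bases gave a weaker split, since 45 of 133 genes whose exonic bases all lay in exons of other genes of the table (33.8%) were listed at 0, and 45 of 140 (32.1%) when exons of every annotated gene were set against them. The study's methods say that reads were counted for genes by genomic coordinates, without saying whether over exons or whole spans, and the part of this choice in the values was not tested.

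**Figure D2:**
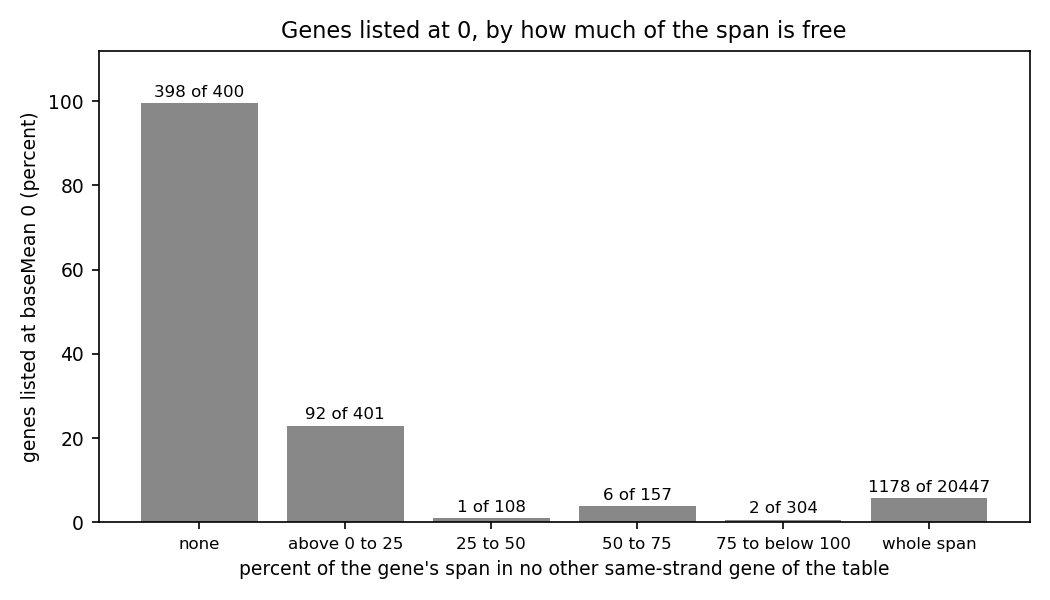
Percent of genes listed at a baseMean of 0 (vertical axis) by the share of the gene's span that lies in no other same-strand gene of the table (horizontal axis), with the number of genes above each bar. The bar for genes with no free base stands at 99.5% and holds 56 of the 57 members, whereas that for genes with a wholly free span stands at 5.76%.

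Genes beside and between the clusters were measured. All 16 flanking genes had a baseMean of at least 1, against 80.9% of all genes, with a median of 120.2 per kb of free span. Levels of the gene lists here and below are per kb of free span, introns included. The planned main length, unshared exonic bases, was not used for them. The part of intron length in differences between lists was not tested. Taf7, a TFIID subunit, and Slc25a2, a mitochondrial ornithine carrier, are single-exon genes on the minus strand between Pcdhb and Pcdhg, and their levels per kb were 530.5 and 221.0. Diaph1, an actin-nucleating formin on the minus strand, ends 1728 bases beyond the 3′ end of Pcdhg and reached 161.5 per kb. Cd14, a co-receptor for lipopolysaccharide, was low at 2.58 per kb.

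The non-clustered protocadherins, each a gene with its own promoter and span, could be read directly. Of 12 such genes, 11 had a baseMean of at least 1, against 80.9% of all genes, and none was listed at 0. Their median was 0.376 per kb of free span. Pcdh19 was the highest at 9.90 per kb, followed by Pcdh1 at 4.72, and Pcdh20 was the lowest at 0.0467. Per kb of free span, all 12 lay below the median of all genes, and the value of Pcdha1 fell within their range. By baseMean, Pcdh19 at 1051 was the only one above the median of all genes, 272.7.

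The machinery that acts on clustered protocadherin promoters in other cells was transcribed at far higher levels. All 21 regulators had a baseMean of at least 1, against 80.9% of all genes, with 11.5 to 633.7 per kb of free span and a median of 230.8. Ctcf, the insulator protein that binds many of the promoters, stood at 261.7 per kb, Rad21, a cohesin subunit, at 400.8, Smchd1 at 94.5 and Rest, a repressor of neuronal genes, at 633.7. The 12 downstream effectors and processing enzymes had a median of 112.2 per kb, with Ptk2, a kinase that the protocadherin cytoplasmic tail can inhibit, at 102.2 and Adam10, a protease that sheds protocadherin ectodomains, at 69.9. For the labelled cell type, all 12 ES cell markers had a baseMean of at least 1, as did 11 of the 12 neuron markers and 80.9% of all genes. The lists differed in level per length, with a median of 1267 per kb for the ES cell markers and 4.35 per kb for the neuron markers, although their ranges overlapped. Among the neuron markers, Stmn2 reached 194.1 per kb, and Tubb3, which has no free span base, was listed at 0.

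**Figure D3:**
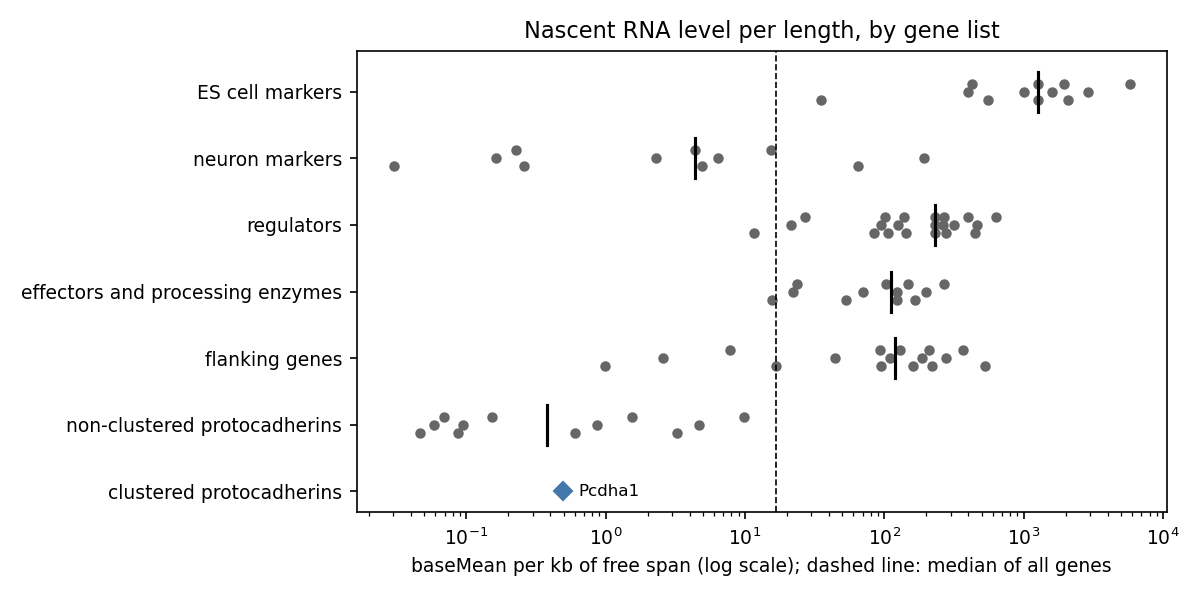
BaseMean per kb of span outside other same-strand genes (horizontal axis, log scale) for the genes of 6 lists (grey points, 1 per gene, vertical bar at the median) and for Pcdha1 (diamond), with the median of all genes dashed at 16.6. Pcdha1 at 0.493 lies among the non-clustered protocadherins, and 56 members and Tubb3 have no free span and cannot be drawn.

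A second readout was available just upstream of the members' starts. PROMPTs are short, unstable transcripts that RNA polymerase II makes upstream of a promoter in the opposite direction to the gene. The study counted them on the antisense strand within 1000 bases upstream of annotated starts. The description deposited with the table adds that they lie away from other annotated protein-coding transcripts and carry the name of the closest gene. This table has its own size factors, so its levels cannot be set against those of the gene table. What RNA from other genes on the antisense strand adds to its levels was not tested. Here 1 read added between 0.0266 and 0.129, according to the library.

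PROMPTs were listed for 44 of the 56 names, and 31 of them (70.5%) were above 0. This compares with 72.1% of all 32253 PROMPTs and 78.5% of the 18065 PROMPTs named for other genes of the gene table. There were 8 members (18.2%) at a PROMPT baseMean of 1 or more, against 33.7% of all PROMPTs and 42.8% of those 18065. At 10 or more there was 1 member, against 11.5% of all PROMPTs. The median over the 44 was 0.296, compared with 0.262 over the whole table and 0.581 over those 18065. Antisense reads were thus listed at the starts of 31 members for which the gene table listed 0, a share no higher than that of all PROMPTs. Some of these 31 rested on 1 to 4 reads, as given below.

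PROMPT levels were listed highest in Pcdhg. The order of Pcdhb and Pcdha depended on the measure: the median was lower in Pcdha, but its share at 1 or more was higher (10.0% against 4.76%). In Pcdhg, all 13 listed PROMPTs were above 0, from 0.302 to 13.95 with a median of 0.915, and 6 reached 1. In Pcdhb, 13 of 21 were above 0, with a median of 0.116, and 1 reached 1. In Pcdha, 5 of 10 were above 0, with a median of 0.0305, and 1 reached 1. No test was made, since genes of a cluster are not replicates and each has only a mean over the libraries. Pcdhg accounted for 79.8% of the summed PROMPT level of all members (37.9), Pcdhb for 14.3% and Pcdha for 5.91%. A pair of genes, Pcdhgc5 and Pcdhga1, made up 54.3% of that sum, and without them the other 11 Pcdhg PROMPTs still had a median of 0.715.

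Pcdhgc5, the C-type gene at the 3′ end of Pcdhg, had the highest PROMPT of the family at 13.95, above 90.8% of all PROMPTs. Between 109 and 523 reads lay behind it. Its neighbour Pcdhgc4 was at 1.68. The noncoding transcript Gm38182 starts 4366 bases downstream of the Pcdhgc5 start, and its own PROMPT was at 16.03. The 3′ end of Diaph1, which is transcribed on the strand of these PROMPTs, lies 24088 bases from the Pcdhgc5 start, and what the RNA beyond that end adds to the value was not tested. The C-type members of Pcdha, Pcdhac1 and Pcdhac2, were listed at 0, so the 4 C-type PROMPTs spanned the whole range of the family.

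Pcdhga1, the first gene of Pcdhg, had the next highest PROMPT at 6.63, above 85.1% of all PROMPTs and backed by 52 to 248 reads. Its upstream window overlaps 3222401L13Rik, a long noncoding RNA gene on the plus strand whose start lies 6342 bases before that of Pcdhga1 and whose own PROMPT was at 32.1. From Pcdhga2 to Pcdhgb6, 10 PROMPTs ranged from 0.302 (Pcdhga6) to 1.68 (Pcdhgb6), with a median of 0.665. Among the listed PROMPTs, the high values of Pcdhg thus lay at its 2 ends.

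Within Pcdhb the PROMPTs were mostly lower in a 5′ stretch than in a 3′ stretch, although their values overlapped. From Pcdhb1 to Pcdhb11, 4 of 11 were above 0 and the highest was Pcdhb7 at 0.294. Pcdhb1, Pcdhb2, Pcdhb5, Pcdhb6, Pcdhb8, Pcdhb10 and Pcdhb11 were listed at 0. From Pcdhb13 to Pcdhb22, 9 of 10 were above 0, with a median of 0.370, and the exception was Pcdhb21. Of all PROMPTs, 72.1% were above 0. At the 3′ end of the cluster, Pcdhb20 (0.225), Pcdhb21 (0) and Pcdhb22 (0.264) lay below Pcdhb7. The highest was Pcdhb17 at 1.51, which required 12 to 56 reads, followed by Pcdhb15 at 0.689, Pcdhb19 at 0.589 and Pcdhb16 at 0.568. The stretches were drawn after the values were seen, and summed to 0.525 and 4.88.

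At the low end the values rested on single reads. The levels of Pcdhb3 and Pcdha11 were the same, 0.0610, and equal to 1 read in 1 library. Pcdhb9, at 0.0533, matched 2 reads in 1 library and Pcdhb4, at 0.116, 1 read in each of 2 libraries. The values of Pcdhb22 (0.264) and Pcdhb13 (0.298) matched 3 and 4 reads in all. Differences among these members cannot be told from counting error. The 7 highest (Pcdhgc5, Pcdhga1, Pcdhgc4, Pcdhgb6, Pcdhb17, Pcdhga2 and Pcdha5) each required at least 10 reads.

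**Figure D4:**
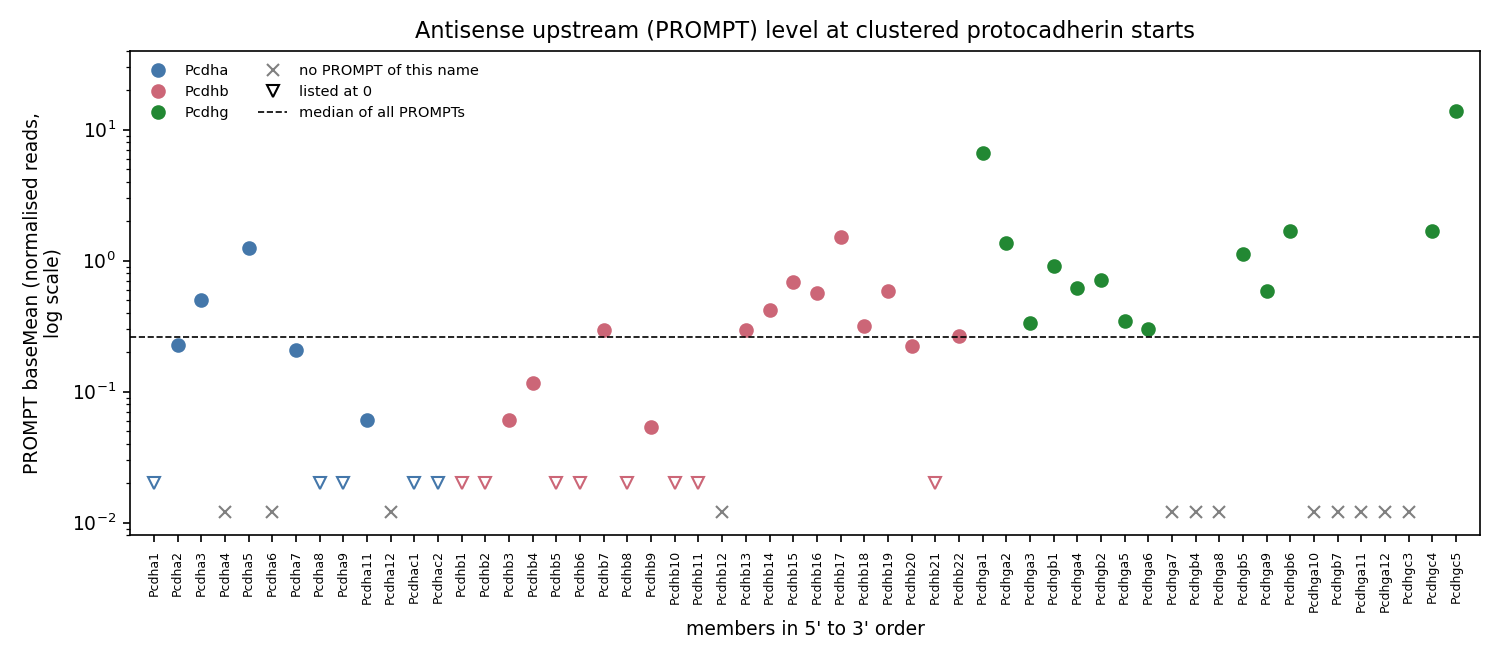
PROMPT baseMean (vertical axis, normalised reads, log scale) for the 56 member names in 5′ to 3′ order (horizontal axis), coloured by cluster. Open triangles below the scale of the data mark the 13 PROMPTs listed at 0, crosses the 12 names with no PROMPT entry, and the dashed line the median of all PROMPTs at 0.262; the highest points are Pcdhgc5 at 13.95 and Pcdhga1 at 6.63, at either end of Pcdhg.

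The 12 names with no PROMPT entry were Pcdha4, Pcdha6, Pcdha12, Pcdhb12, Pcdhga7, Pcdhga8, Pcdhga10, Pcdhga11, Pcdhga12, Pcdhgb4, Pcdhgb7 and Pcdhgc3. For 11 of them an annotated antisense gene overlaps the 1000 bases upstream of the start, and this was so for 1 of the 44 names with an entry. Gm26672 covers the windows of Pcdhga10, Pcdhga11, Pcdhga12 and Pcdhgb7, Gm37165 those of Pcdhga7, Pcdhga8 and Pcdhgb4, and BC037039 that of the C-type gene Pcdhgc3. The Pcdhg median above therefore describes 13 of the 21 genes of that cluster.

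In base composition the upstream windows of the members were low in GC, with a median of 37.0% against 47.8% over 21804 genes. Their median ratio of observed to expected CpG was 0.317, against 0.340 over all genes. GC was lowest in Pcdha, with a median of 33.9%, and highest in the Pcdhgc genes, at 45.8%. Few exonic bases lay in 50-base words found more than once within the clusters: the median per gene was 6.51% in Pcdha, 3.48% in Pcdhb and 0.336% in Pcdhg. The highest share was 12.6%, in a Pcdha gene, and the Pcdhgc genes had none. Reads that aligned to several places were discarded by the authors, and how many such reads the members lost was not tested.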

How the data were processed

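Members and gene lists were chosen with earlier results of these data known. TT-seq reads of 18 libraries were trimmed, aligned uniquely to mm10 (STAR) and counted by strand by the authors, with featureCounts per the study's methods and HTSeq per the submitters' processing notes; Gencode vM25 was named. The deposited baseMean is a signal: counts divided by DESeq2 size factors by the authors and averaged over libraries. The fold changes, their errors and the p-values that the authors deposited compare SPT16-depleted with control cells and were not used, so groups were not compared, and depth per library is not known beyond the values of 1 read, which reflect size factors. Tables of enhancer and other noncoding RNAs were not used, because their regions carry no position.

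Free bases were computed with Python 3.11.15, pandas 2.3.3 and numpy 2.4.6 from Gencode vM21 (GRCm38), which matched 21817 of 21859 gene identifiers, so overlaps in vM25 may differ. Upstream windows and their antisense genes are from vM21 too. Values of 1 read were taken from recurring values under 0.2, and sums of up to 4 reads were matched within 2e-07. On simulated data, matching was tried with the known read values and only for features of up to 4 reads. Whether a feature with more reads could match such a sum was therefore not tested. PROMPT entries were joined by name. The rule for named genes allowed all C-type and Pcdhb genes, the 3 highest and 2 lowest by baseMean of each other subfamily, and up to 4 genes per list; since nearly all members tie at 0, the text names those with the PROMPT values of note, chosen after these were seen. Precision is limited to counting bounds.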

Additional observations from a re-analysis of the deposited data

How the results depend on the processing

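No paired analysis was possible because the tables hold a single mean per gene, and for the same reason no replicate could be left out. At a limit of 5 or 10 in place of 1, 0 Pcdha genes were counted, and Pcdhb and Pcdhg stayed at 0 under every limit tried. The Pcdha level was 0.317 as a mean over members and 4.44 over members above 0, in place of a median of 0; per kb of free span it was 0.493. With any PROMPT above 0 counted, there were 5 of 10 in Pcdha, 13 of 21 in Pcdhb and 13 of 13 in Pcdhg, against 72.1% of all PROMPTs. At 10 or more there were 0, 0 and 1, against 11.5% of all PROMPTs. Alternatives added after seeing the data: among genes with no exonic base free of other genes of the table, 33.8% were listed at 0 (with overlap of spans by all annotated genes, 84.3%), and 24 members had a free span without the 3 long models. With 84.3% among them, 28 alternative values were equal to or within 1.5 times the main ones, and 13 moved further. Most of the 28 set 0 against 0, so their agreement follows from the members being listed at 0 and is no measure of robustness. The levels are means over treated and control libraries. Low read counts limit the PROMPT results: values under about 0.3 can rest on 1 to 4 reads.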

Other observations

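Other loci with overlapping genes on 1 strand showed the same listing; they were chosen after their values were seen. The Ugt1a genes, which encode enzymes that couple glucuronic acid to bilirubin and drugs, also join variable first exons to shared 3′ exons. Of 9 Ugt1a genes in the table, 7 had no free span base and all 7 were listed at 0, whereas the other 2 were above 0. Of 39 Hox genes, the 8 without a free span base (Hoxa3, Hoxa4, Hoxa5, Hoxa6, Hoxc6, Hoxc8, Hoxc9 and Hoxd4) were listed at 0, and all 31 others were above 0. Of 99 genes with an Rpl or Rps name, Rpl13 alone lacked a free span base, and it alone was listed at 0. Cox16 and Cox4i1 were the only 2 of 28 Cox genes without a free span base, and the only 2 listed at 0.

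Between Pcdhb and Pcdhg, the long noncoding RNA gene 4930517L18Rik had a PROMPT of 23.9. The 2 long models that carry a PROMPT entry, Gm37013 and Gm37388, were at 0.620 and 0.149 in that table.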
